A study of Homo sapiens with 8 samples.

Results

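Genes of extracellular nucleotide breakdown and adenosine handling were followed in a human osteosarcoma line transfected with miR-101-3p, a microRNA, as a synthetic mimic. They are ENTPD1, NT5E, ENPP1, ADA, ADK and DPP4, 6 of the 15982 gene symbols in the count table, taken by symbol. The set was selected on its measured values in this very comparison, in which ENTPD1 and DPP4 stood higher and NT5E lower with miR-101, so the differences between the groups are a description and carry no test. RNA was sequenced from 143BTK- cells, an osteosarcoma line without thymidine kinase, and all 8 cultures grew in glucose-free DMEM with 10 mM galactose, 5% dialysed fetal calf serum, uridine and antibiotics. One group of 4 received 80 pmol of the mirVana mimic hsa-miR-101-3p (miR-101) and the other group of 4 received 80 pmol of the mirVana mimic Negative Control #1 (control), both with Lipofectamine RNAiMAX at the start and again at 48 h. Cells were harvested at 120 h, and the labels describe 4 independent transfection experiments in this single line. The level of the microRNA itself was not analysed here.

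ATP released from cells is broken down on the cell surface. The ectonucleotidase CD39, encoded by ENTPD1, removes phosphates from ATP and ADP to leave AMP, and CD73, encoded by NT5E, turns AMP into adenosine. ENPP1 splits ATP into AMP and pyrophosphate and in bone is best known as a source of the pyrophosphate that restrains mineral formation. Adenosine acts on its own receptors or is removed, by ADA, the deaminase that makes inosine, and by ADK, the kinase that returns it to AMP inside the cell. DPP4, known as CD26, is a surface peptidase that trims peptides with proline or alanine next to the end, and human ADA can dock on it outside the cell.

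The mimic carries the mature sequence below, copied from the RefSeq microRNA table (GRCh38.p14), with the seed, bases 2 to 8, in capitals. The seed is the part that pairs with target mRNAs.
hsa-miR-101-3p: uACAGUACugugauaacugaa
The longest 3' UTR of each gene in GENCODE 29 (GRCh38) was searched for the complement of this seed, as 8-base (GTACTGTA), 7-base (GTACTGT or TACTGTA) or 6-base (TACTGT) matches on the mRNA strand. No member of the 6 held a match of 7 or 8 bases, in this or any other coding transcript's 3' UTR. Of 12213 genes of the table with a 3' UTR, 23.8% held one. For 4 of the 6 the strongest match was the 6-base one, which was the strongest for 18.3% of all genes. ADA and ADK held none in the 3' UTR searched. Elsewhere in the annotated transcripts, matches of 7 or 8 bases numbered 5 for ADA and 1 for DPP4. A match was counted in each transcript that held it, and the other members had none. The 3' UTRs searched were 3312 bases long for ENTPD1, 1787 for NT5E, 1042 for DPP4, 4644 for ENPP1, 312 for ADA and 858 for ADK. The 6-base matches are shown with 15 bases before and 9 after them, the match in capitals, next to the 8-base site of EZH2, a described miR-101 target.
ENTPD1 site 1 (chr10:95866564-95866593, plus strand): aaggacttcggcagaTACTGTctctttcat
ENTPD1 site 2 (chr10:95868004-95868033, plus strand): tgtggtagttgcctaTACTGTcatcgctgc
DPP4 (chr2:161992783-161992812, minus strand): ccaacacgagcaggcTACTGTcagctcccc
NT5E (chr6:85494542-85494571, plus strand): tcaactatatcaagtTACTGTtcagaatac
ENPP1 (chr6:131894251-131894280, plus strand): gcctatcctgatttcTACTGTcatgcctca
EZH2, 8-base site (chr7:148807517-148807546, minus strand): tctgaatttgcaaaGTACTGTAagaataat
NT5E, the member that stood lower with miR-101, thus has 1 match of 6 bases, and so does DPP4, which stood higher. A match in sequence is a description and does not show binding.

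EZH2, the Polycomb methyltransferase used to check the labels, stood at 28.1 ± 2.09 CPM with miR-101 (mean ± SD, n = 4), against 45.7 ± 5.12 in control libraries. CPM is the read count divided by the TMM-adjusted library size and put on the usual scale of counts per unit of depth. It fell by 0.70 ± 0.114 on the log2 scale (± SE, edgeR adjusted p = 0.00561). EZH2 stayed called whichever library was dropped, but not with replicates 1 and 2 summed (log2 fold change -0.67, edgeR adjusted p = 0.0809) or in replicates 3 and 4 alone (-0.59, edgeR adjusted p = 0.565). Total counts ran from 17603054 to 20160267 per library. Replicates 1 and 2 lay closer to each other than any other libraries of their group. The chi-square statistic per degree of freedom over genes, which is near 1 for pure counting error, was 4.72 between them in the control and 3.82 with miR-101, against 32.2 to 70.9 and 14.5 to 50.6 for the other pairs. They still differed by more than counting error and were kept as separate libraries. Values from replicates 3 and 4 alone are given where they bear on a member. Of the markers of mesenchymal and bone cells, 6 of 8 had a row in the table, with summed levels of 1574 to 2748 CPM (miR-101) and 1691 to 2139 CPM (control). COL1A2 and ALPL had no row. VIM, SPARC and CD44 made up most of that sum. With miR-101, VIM (580.9 against 668.5 CPM) and CD44 (600.9 against 677.5 CPM) stood lower and SPARC (942.1 against 564.0 CPM) higher. None of these was called (edgeR adjusted p = 0.596, 0.401 and 0.3955). The osteoblast regulator RUNX2 rose by 0.93 on the log2 scale (edgeR adjusted p = 0.0269), from 13.4 ± 4.00 to 25.4 ± 4.80 CPM, and the bone matrix genes SPP1 and COL1A1 stood at 122.2 against 28.7 CPM and 13.5 against 6.29 CPM without being called (edgeR adjusted p = 0.0867 and 0.0619). ENTPD1 and DPP4 are also surface markers of leukocytes and endothelium. Of 5 leukocyte markers 1 had a row (CD14, 1.52 to 2.05 CPM with miR-101 and 1.19 to 3.55 in the control), and of 3 endothelial markers 1 (PECAM1, 0.867 to 2.04 and 0.86 to 3.96 CPM). The other markers of these 2 lists were not analysed here. Of 3 epithelial markers 1 had a row, EPCAM, which was not called (12.7 ± 3.81 CPM with miR-101, 7.75 ± 2.45 for control, edgeR adjusted p = 0.137). The part of the marker levels in the results was not tested.

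All 6 genes passed the filter on low counts, and 3 of them, 2 higher and 1 lower, were called, meaning that the edgeR quasi-likelihood adjusted p was below 0.05. ENTPD1 passed the filter only through the miR-101 libraries, with 4 to 7 reads in each control library. Over all genes 6.62% of 15905 tested genes were called, 3.30% higher and 3.32% lower (525 and 528 genes, or 883 and 793 with a replicate block). The groups did not overlap for the same number of members, 3 of 6, and for 15.1% of all tested genes (7.76% higher and 7.34% lower). Because the contrast chose the members, these counts are given only as background.

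**Figure D1:**
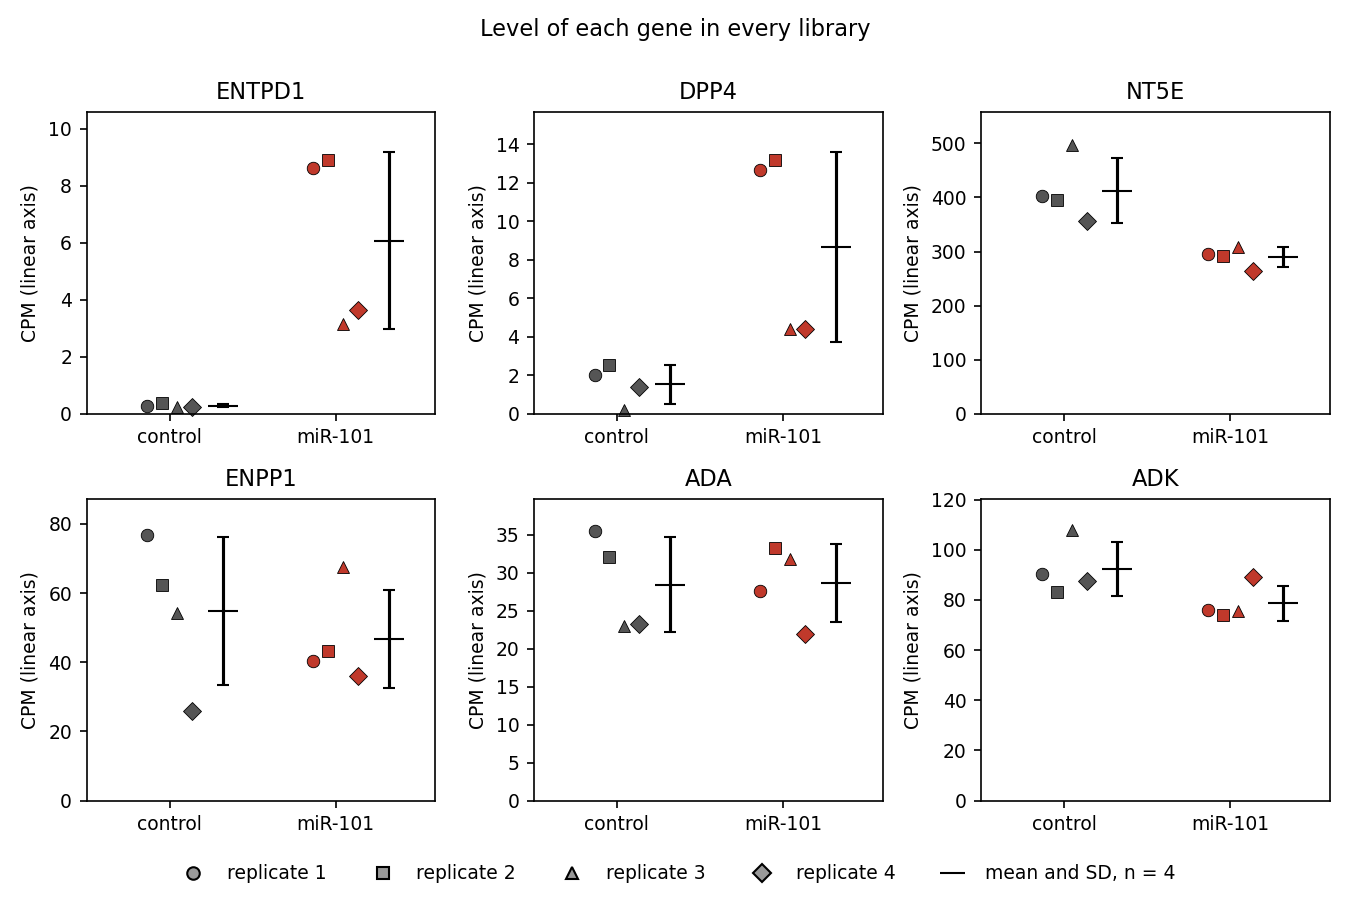
CPM of the 6 genes in each library (linear axes from 0), with control libraries in grey and miR-101 libraries in red, the symbol shape giving the replicate number and the bar the mean ± SD of 4 libraries. ENTPD1 and DPP4 lie higher in all 4 miR-101 libraries than in any control and NT5E lies lower, while ENPP1, ADA and ADK overlap between groups.

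ENTPD1 (ENSG00000138185.19, GRCh38 chromosome 10, 95711779 to 95869695, plus strand), the first enzyme of the cascade, was nearly silent in the control. Its counts there were 5, 7, 4 and 5 reads in replicates 1 to 4, or 0.275, 0.366, 0.248 and 0.239 CPM. With miR-101 they were 161, 178, 64 and 67 reads, or 8.64, 8.90, 3.13 and 3.63 CPM. Every miR-101 library thus stood far above every control library, and the miR-101 libraries fell into a higher pair, replicates 1 and 2, and a lower pair, replicates 3 and 4. Exact Poisson 95% intervals, which cover counting error only, reached from 0.0676 to 0.753 CPM over the control libraries and from 2.41 to 10.3 CPM over the miR-101 libraries. The lower miR-101 pair (2.41 to 4.61 CPM) did not meet the higher one (7.36 to 10.3 CPM). Mean levels of 6.07 ± 3.12 (miR-101) and 0.282 ± 0.0579 CPM (control) gave a ratio of 21.5 (SD over 4 libraries). The fitted log2 fold change was 4.40 ± 0.453 (SE). It was 3.76 in replicates 3 and 4 alone and 4.74 in replicates 1 and 2 alone.

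The ENTPD1 locus is shared with ENTPD1-AS1, an antisense RNA on the other strand whose exons overlap those of ENTPD1 over 454 bases. No source used here says whether the counting used strand, so reads over these bases cannot be assigned with certainty. ENTPD1-AS1 had 220 to 273 reads with miR-101 and 115 to 257 in the control, and its log2 fold change was 0.27 ± 0.172. In the control libraries these reads stood beside 4 to 7 reads of ENTPD1. AL365273.2, a gene model on the same strand that shares 173 exon bases with ENTPD1, was not analysed here.

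NT5E (ENSG00000135318.11, chromosome 6, 85449584 to 85495791, plus strand), which makes adenosine from AMP, was the most abundant of the 6 genes. It stood at 402, 395, 497 and 356 CPM in control replicates 1 to 4 and at 296, 292, 308 and 264 CPM in miR-101 replicates 1 to 4. The highest miR-101 library, replicate 3, remained below the lowest control library, replicate 4, and the miR-101 libraries were the more alike. Means were 289.9 ± 18.6 and 412.4 ± 59.7 CPM (SD, n = 4 each), 1.42-fold higher in the control, with a log2 fold change of -0.51 ± 0.117. Replicates 3 and 4 alone gave -0.57 and replicates 1 and 2 alone -0.45. Without control replicate 3, the highest library, the value was -0.41. No overlapping gene was annotated at this locus.

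ENPP1 (ENSG00000197594.12, chromosome 6, 131808016 to 131895155, plus strand), the source of AMP and pyrophosphate, varied more within groups than between them. Control replicates 1 to 4 stood at 76.9, 62.5, 54.2 and 25.8 CPM, and miR-101 replicates 1 to 4 at 40.4, 43.3, 67.6 and 36.0 CPM. The lowest and the highest of the 8 libraries were both controls, and the group ranges overlapped. Means were 46.8 ± 14.1 and 54.8 ± 21.5 CPM, with a log2 fold change of -0.23 ± 0.295. The sign was not the same through the series: between same-numbered libraries the log2 difference was -0.93 and -0.53 in replicates 1 and 2, and 0.32 and 0.48 in replicates 3 and 4. Fits within those replicates gave -0.74 (replicates 1 and 2) and 0.38 (replicates 3 and 4). Whether these differ was not tested. AL139805.1, a processed pseudogene on the other strand that shares 94 exon bases with ENPP1, was not analysed here.

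ADA (ENSG00000196839.12, chromosome 20, 44619522 to 44652233, minus strand), the deaminase, stood at 35.5, 32.0, 23.0 and 23.3 CPM in control replicates 1 to 4 and at 27.6, 33.3, 31.8 and 21.9 CPM in miR-101 replicates 1 to 4. Means were nearly equal, 28.6 ± 5.11 and 28.5 ± 6.28 CPM, with a log2 fold change of 0.01 ± 0.179 and 2 of 4 same-numbered pairs in each direction. Replicates 1 and 2 alone gave -0.15 and replicates 3 and 4 alone 0.22, and whether these differ was not tested. PKIG, a gene on the other strand that shares 46 exon bases with ADA, rose by 0.64 ± 0.161 on the log2 scale (edgeR adjusted p = 0.0386), so ADA's value is uncertain to the extent that reads over those bases were counted for both.

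ADK (ENSG00000156110.13, chromosome 10, 74151185 to 74709303, plus strand), the kinase that removes adenosine inside the cell, stood at 90.2, 83.3, 107.7 and 87.7 CPM in control replicates 1 to 4. With miR-101 it stood at 76.0, 74.0, 75.6 and 89.0 CPM. Replicates 1 to 3 with miR-101 were below every control, and replicate 4 lay within the control range. The log2 fold change was -0.23 ± 0.112 over all libraries, -0.22 in replicates 1 and 2 alone and -0.25 in replicates 3 and 4 alone. Without miR-101 replicate 4 it was -0.30. Without control replicate 3, the highest library, it was -0.15. AC022540.1 and MRPL35P3, transcript models that share 227 and 188 exon bases with ADK, were not analysed here.

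DPP4 (ENSG00000197635.9, chromosome 2, 161992241 to 162074542, minus strand), the peptidase that can hold ADA at the surface, had 37, 48, 3 and 29 reads in control replicates 1 to 4, or 2.03, 2.51, 0.186 and 1.39 CPM. With miR-101 it had 236, 264, 90 and 81 reads, or 12.7, 13.2, 4.41 and 4.39 CPM. The groups did not overlap, and as for ENTPD1 the miR-101 replicates 1 and 2 formed a higher pair than replicates 3 and 4. Control replicates 1 and 2 were also the higher controls. The means of 8.66 ± 4.93 and 1.53 ± 1.01 CPM gave a ratio of 5.67 and a log2 fold change of 2.48 ± 0.554. The ratio of the means was 5.70 within replicates 1 and 2 and 5.59 within replicates 3 and 4. Control replicate 3, with 3 reads, gave a ratio of 23.7 to its same-numbered miR-101 library, with an exact 95% interval of 7.84 to 117 for counting error. Without that control library the log2 fold change was 2.13. An unnamed antisense transcript model, AC008063.1, overlaps 172 exon bases of DPP4 and was not analysed here.

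**Figure D2:**
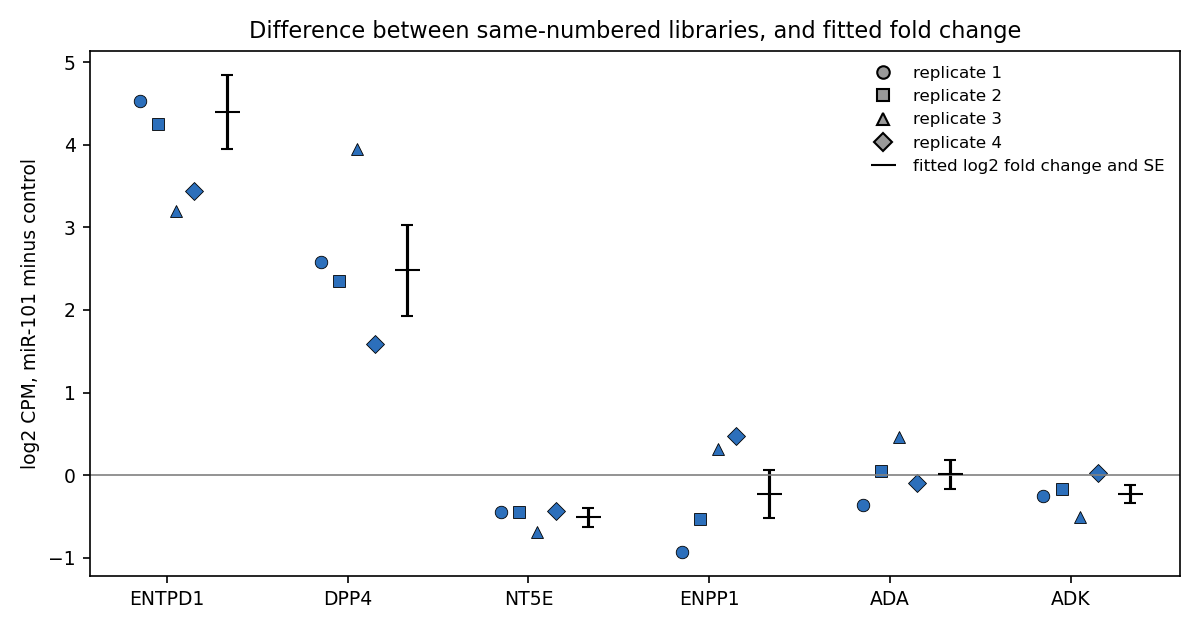
Difference in log2 CPM (prior count 2) between miR-101 and control libraries of the same replicate number for each gene, with the fitted log2 fold change ± SE in black. ENTPD1 and DPP4 are above 0 in 4 of 4 replicates and NT5E is below 0 in 4 of 4, whereas ENPP1 lies below 0 in replicates 1 and 2 and above it in replicates 3 and 4.

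Levels can be compared between genes only per length, here as CPM per kilobase of the union of a gene's GENCODE exons (mean ± SD, n = 4). In the control the order was NT5E (91.0 ± 13.2), ADK (28.96 ± 3.36), ADA (9.98 ± 2.20), ENPP1 (5.51 ± 2.16), DPP4 (0.305 ± 0.201) and ENTPD1 (0.0404 ± 0.0083). The order with miR-101 was the same, at 64.0 ± 4.09, 24.7 ± 2.19, 10.0 ± 1.79, 4.70 ± 1.42, 1.73 ± 0.984 and 0.871 ± 0.447. DPP4 and ENTPD1, the lowest pair, overlapped in both groups, with control libraries at 0.0372 to 0.501 for DPP4 and 0.0343 to 0.0524 for ENTPD1. Within each single library DPP4 was above ENTPD1, but only just in control replicate 3 (0.0372 against 0.0356). In that library the order was reversed per length of the longest coding transcript (0.0477 against 0.0492). The other neighbours in the order did not overlap, ADA and ENPP1 being the closest, with a lowest ADA library at 8.07 and a highest ENPP1 library at 7.72 in the control. The per-length level of NT5E was 1664 to 3077 times that of ENTPD1 in the control libraries and 50.5 to 151 times in the miR-101 libraries. Per length of the longest coding transcript these ratios were 1392 to 2574 and 42.2 to 127. The control ratios are imprecise, since they rest on 4 to 7 ENTPD1 reads in each library. ENTPD1 and DPP4 thus remained with miR-101 the least abundant of the 6. In bulk RNA, a change in the number of expressing cells and a change in RNA per cell cannot be told apart.

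**Figure D3:**
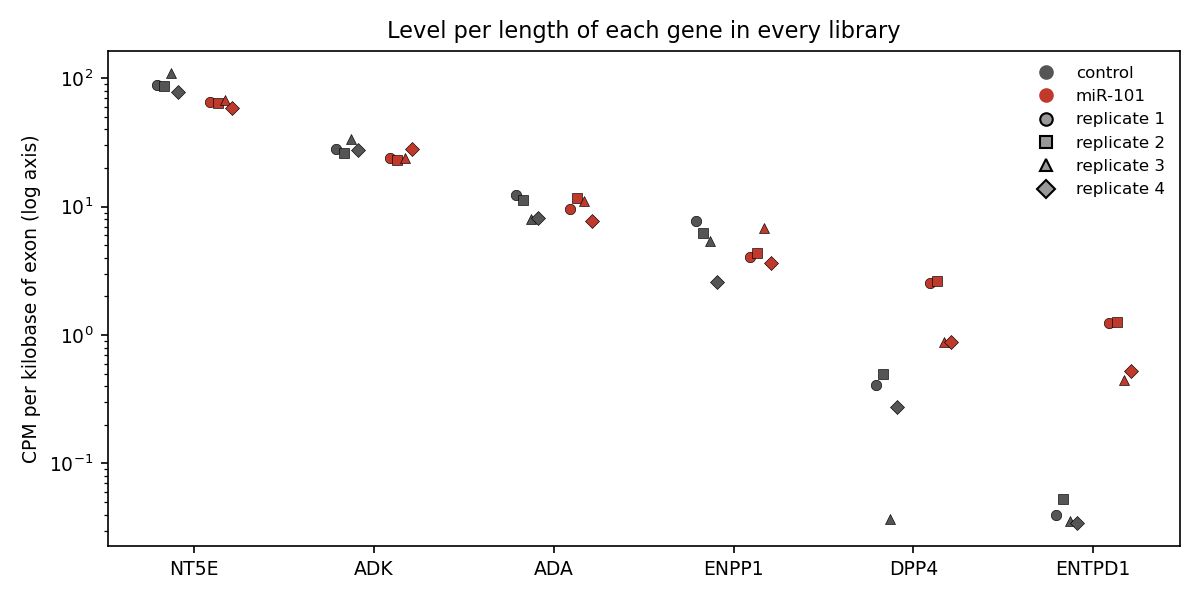
Level of each gene per kilobase of exon in every library (log axis), control in grey and miR-101 in red, in the order of the control means. NT5E is highest in both groups, and DPP4 and ENTPD1 lie below the other 4 genes in every library.

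The genes whose pattern over the 8 libraries was most like that of each member were found by the root mean square difference of mean-centred log2 CPM, among tested genes with a mean of at least 4 CPM. This measure follows the difference between the groups as well as the spread within them. The measure is not scaled, so distances are smaller for genes that vary little, and their size does not rank the members. Genes below that mean could not be found as nearest genes. The nearest to ENTPD1 were IL6, an inflammatory cytokine (0.717 log2 units), TMEM200C (0.762) and CCDC80 (0.99). The nearest to DPP4 were the collagen chain gene COL5A3 (0.483), IL6 (0.631) and CEMIP, a gene of hyaluronan breakdown (0.706), while ENTPD1 and DPP4 were 1.03 apart. For COL5A3 the levels were 16.4 ± 8.31 CPM (miR-101) and 4.47 ± 3.12 CPM (control). NT5E lay much closer to its nearest genes, MCCC2 (0.033), LCOR (0.071) and ZNF451 (0.081), and the distance from NT5E to ADK was 0.198. The nearest to ADK were TBC1D23 (0.044), MAP4K3 (0.045) and HDAC2 (0.049), and the nearest to ADA were LRP5 (0.082), ABCD4 (0.087) and ENO1 (0.096). ENPP1, with its larger spread, had ALDOC (0.15), PDK3 (0.175) and IFI44 (0.192) as nearest genes.

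Sequences around the annotated starts are shown for DPP4 and ENTPD1, which stood higher, and for NT5E, which stood lower. They are RefSeq windows of 300 bases (GRCh38.p14, 250 before to 50 after the start), and all 6 genes matched the table, with 5 windows for ENTPD1, 2 for ADK and 1 for each other gene. For ENTPD1 the first listed window is printed, since the libraries do not show which start was used. Capitals mark matches on either strand to GGGCGG (the GC box of Sp1), ACGTG (the core of the hypoxia response element), TGACG (the core of the cAMP response element) and TTCNNNGAA (the GAS element of STAT factors), which occur in 45.0%, 21.4%, 24.6% and 7.66% of 35116 RefSeq windows of this length.
DPP4 (chr2:162074166-162074465, minus strand): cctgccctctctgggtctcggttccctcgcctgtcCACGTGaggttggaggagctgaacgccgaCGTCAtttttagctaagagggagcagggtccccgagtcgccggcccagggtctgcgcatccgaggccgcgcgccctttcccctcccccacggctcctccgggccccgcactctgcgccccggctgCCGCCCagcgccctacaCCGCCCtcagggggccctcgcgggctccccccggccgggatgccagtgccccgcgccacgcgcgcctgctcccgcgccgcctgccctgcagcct
NT5E (chr6:85449833-85450132, plus strand): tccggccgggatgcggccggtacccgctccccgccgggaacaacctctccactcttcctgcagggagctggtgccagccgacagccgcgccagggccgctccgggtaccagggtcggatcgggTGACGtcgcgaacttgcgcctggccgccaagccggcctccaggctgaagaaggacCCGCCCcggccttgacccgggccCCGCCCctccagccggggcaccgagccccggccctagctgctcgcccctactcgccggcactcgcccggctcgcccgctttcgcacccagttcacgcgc
ENTPD1 (chr10:95755913-95756212, plus strand): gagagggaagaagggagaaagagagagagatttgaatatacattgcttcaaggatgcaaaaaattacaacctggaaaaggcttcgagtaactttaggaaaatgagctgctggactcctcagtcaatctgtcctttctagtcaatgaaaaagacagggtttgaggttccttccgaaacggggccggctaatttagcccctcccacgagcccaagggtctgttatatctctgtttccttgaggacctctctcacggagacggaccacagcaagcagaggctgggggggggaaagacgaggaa
DPP4 and NT5E, which lay on opposite sides of 0, were alike in composition (75.0% G and C each, against a median of 58.7% over all windows), each with 2 GC boxes and 1 cAMP response core. The DPP4 window also held a palindrome, CACGTG, that contains the hypoxia core on both strands. The hypoxia core also lay in the window of ENPP1, whose groups overlapped. The ENTPD1 windows ranged from 43.0% to 62.7% G and C. Of the 5, 2 held the cAMP response core and none held any of the other 3 motifs.

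The wider pathway was read from 5 lists of other genes, tested over the whole table (edgeR adjusted p below). The number called in each list is to be read beside the 6.62% called over all tested genes, and with 8 to 25 tested genes a list it rests on 0 to 2 genes. Over all 15905 tested genes, 1808 were higher and 1731 lower at an unadjusted edgeR p below 0.05. A positive log2 fold change was held by 7837 of them. Listed genes that were not tested had no row under the symbols searched. Of 21 other ectonucleotidase family genes 12 were tested and none was called, with 4 higher and 2 lower at an unadjusted p below that threshold, 2 called by DESeq2 and 1 by limma-voom. With the replicate block 1 was called, BST1, an ectoenzyme that uses NAD, at 7.62 ± 0.837 against 4.37 ± 1.43 CPM (edgeR adjusted p = 0.0536, and 0.0157 with the block). The list's median log2 fold change was 0.14 beside -0.005 over all tested genes. Its most abundant members, ENTPD6 and ENPP4, stood at 51.0 against 53.6 CPM and at 64.4 against 45.0 CPM (edgeR adjusted p = 0.74 and 0.102, and 0.0224 for ENPP4 without control replicate 3). BST1 was also called without control replicate 4 (edgeR adjusted p = 0.00545).

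Of 22 purinergic receptors and pannexins 8 were tested, and of these 1 was called lower and none higher. At an unadjusted p below the threshold 2 were lower and none higher, while 6 of the 8 had a positive log2 fold change (median 0.044). The called gene was ADORA2B, the low-affinity adenosine receptor coupled to cAMP. ADORA2B stood at 77.3, 78.5, 67.6 and 66.8 CPM in miR-101 replicates 1 to 4 and at 99.8, 104, 89.7 and 102 CPM in the controls. It was lower in every miR-101 library than in any control, with a log2 fold change of -0.45 ± 0.0996 (edgeR adjusted p = 0.0236). Leaving out any 1 miR-101 library or control replicate 1 or 2 ended the call (edgeR adjusted p = 0.0527 to 0.0815), as did summing replicates 1 and 2 (0.151). The adenosine receptor gene ADORA1 was low, at 0.978 ± 0.196 against 1.38 ± 0.154 CPM, and was not called although the groups did not overlap (edgeR adjusted p = 0.217). The ATP and ADP receptors were not called, and P2RY1 and PANX1 stood at 55.8 against 51.6 CPM and 37.5 against 37.2 CPM.

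Of 33 genes of nucleoside transport and intracellular adenosine and AMP metabolism 25 were tested, and of these 1 was called lower and none higher. At an unadjusted p below the threshold 3 were lower and none higher, and 6 of the 25 had a positive log2 fold change (median -0.083). PNP, the phosphorylase that splits the inosine made by ADA, stood at 74.6, 79.8, 87.1 and 86.8 CPM in miR-101 replicates 1 to 4 and 115, 97.0, 112 and 115 CPM in the controls, again without overlap. Its log2 fold change was -0.42 ± 0.10 (edgeR adjusted p = 0.0319). The call ended in fits lacking miR-101 replicate 1, 2 or 3 or lacking control replicate 1 (edgeR adjusted p = 0.113, 0.108, 0.059 and 0.0956) and with replicates 1 and 2 summed (0.186). In the blocked fit AK5, an adenylate kinase, was called as well (log2 fold change -0.89, edgeR adjusted p = 0.00723, against 0.0707 without the block). The nucleoside transporter SLC29A1 was not called (edgeR adjusted p = 0.318), nor was SLC29A3, whose groups did not overlap (0.677 ± 0.214 against 1.26 ± 0.225 CPM, edgeR adjusted p = 0.0831), and AHCY, the most abundant of the list in the control, stood at 298.9 against 299.3 CPM.

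On the peptidase side, 11 of 14 relatives of DPP4 and other enzymes of peptide ends were tested. Of these 1 was called higher and 1 lower, the same as at an unadjusted p below the threshold, and 6 had a positive log2 fold change (median 0.005). FAP, the surface peptidase closest to DPP4 in sequence, stood at 2.95, 2.70, 3.92 and 3.90 CPM in miR-101 replicates 1 to 4 and at 0.934, 1.99, 1.12 and 1.24 CPM in the controls. The groups did not overlap, and the log2 fold change was 1.34 ± 0.255 (edgeR adjusted p = 0.0118). FAP lies on the same strand as DPP4, 96141 bases away on chromosome 2 (162170684 to 162245151), with 1 protein-coding gene, GCG, between them. With miR-101 FAP was lower in replicates 1 and 2 than in 3 and 4, the reverse of DPP4, and its highest control, replicate 2, was also the highest DPP4 control. The FAP call held in each fit that left out 1 library (edgeR adjusted p up to 0.0396) and with replicates 1 and 2 summed (0.0386). ANPEP, an aminopeptidase of the cell surface, stood at 4.82 ± 0.357 against 8.98 ± 3.45 CPM and fell by 0.90 ± 0.238 on the log2 scale (edgeR adjusted p = 0.0474). That call ended without any 1 miR-101 library or control replicate 1 or 3 (edgeR adjusted p = 0.0532 to 0.137). It also ended with replicates 1 and 2 summed (0.137) and with limma-voom on all libraries (adjusted p = 0.0652). PREPL and XPNPEP1 stood at 153.0 against 136.1 CPM and 124.9 against 114.9 CPM, and neither was called.

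Of 20 genes described as DPP4 substrates or binding partners 8 were tested, and of these 1 was called higher and none lower. At an unadjusted p below the threshold 3 were higher and none lower, and 4 of the 8 had a positive log2 fold change (median -0.102). The chemokine CXCL12, which DPP4 inactivates by removing its first residues, stood at 2.25, 1.499, 1.81 and 1.73 CPM with miR-101 and at 0.0549, 0.313, 0.372 and 0.335 CPM in the controls. Its log2 fold change was 2.73 ± 0.356 (edgeR adjusted p = 0.00208). CXCL12 passed the filter on low counts only through the miR-101 libraries, with 1 to 7 reads in each control library, and its adjusted p is to be read with that. Both CXCL12 and DPP4 thus stood at low levels in the control. In the blocked fit the cytokine gene CSF2 was called as well (log2 fold change 0.88, edgeR adjusted p = 0.0327, against 0.11 without the block), and without control replicate 4 CXCL11 was (log2 fold change -0.89, edgeR adjusted p = 0.0265). The chemokine gene CXCL10 stood at 2.92 ± 1.05 against 1.11 ± 0.895 CPM and was not called (edgeR adjusted p = 0.183). FN1 and CAV1, which bind DPP4, stood at 258.3 against 310.6 CPM and 209.2 against 262.0 CPM (edgeR adjusted p = 0.499 and 0.512). In replicates 3 and 4 alone none of the 5 named calls was kept, in a fit that called 6 genes of the whole table.

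**Figure D4:**
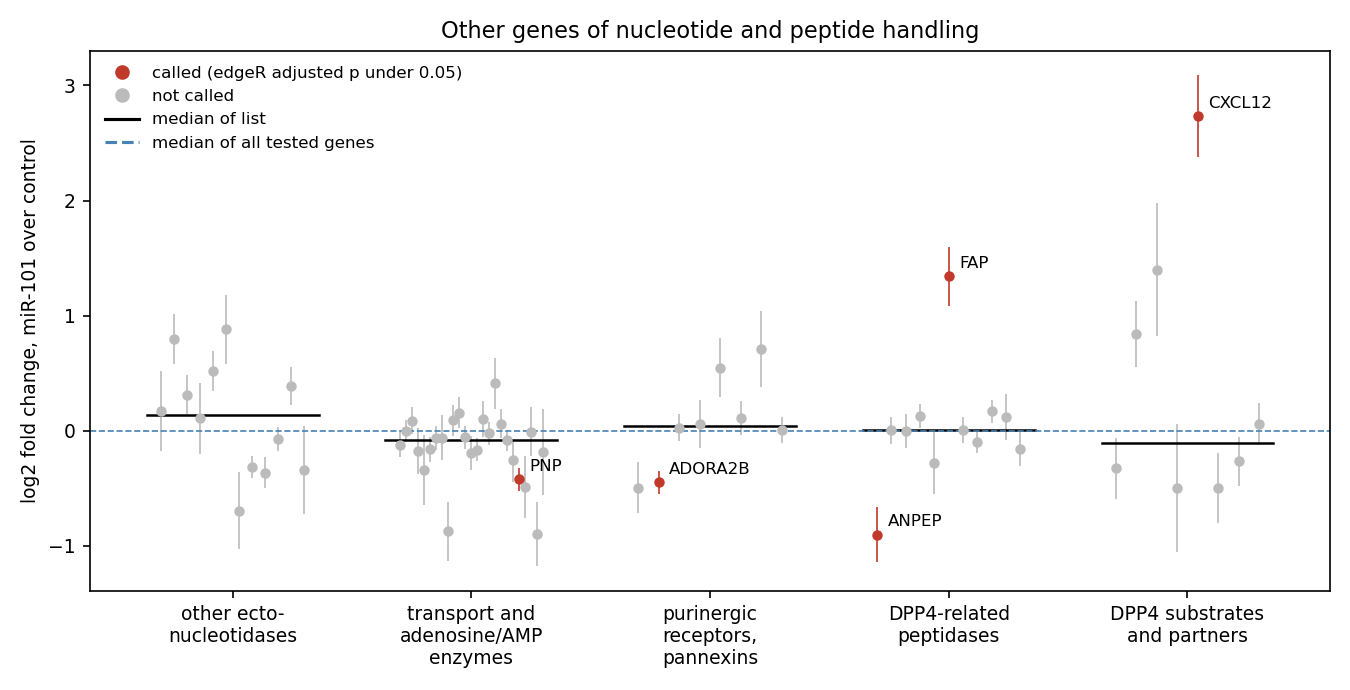
Log2 fold change ± SE (miR-101 over control) of the tested genes of the 5 lists, called genes in red with their symbols, the list's median as a black line and the median of all tested genes as a dashed line. The 5 called genes are PNP, ADORA2B and ANPEP below 0 and FAP and CXCL12 above it, and the list medians lie between -0.102 and 0.141.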

How the data were processed

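The authors deposited whole-number read counts per gene symbol, not normalised, for 8 libraries made after ribosomal RNA removal (Ribo-zero Gold, per the labels). Each library had reads for 15977 to 15982 of the 15982 symbols, so shares over all genes are over genes detected in nearly every library. The reads passed through StringTie 1.2.4, TopHat2 2.0.14 and bcl2fastq 2.18.0.12, with build hg38, per the submitters' processing notes, which give no order. Which program counted the reads, on which annotation and with what strand setting is not given in the sources used here. Counts were tested with edgeR 4.0.16 (R 4.3.3): filterByExpr, TMM, glmQLFit and glmQLFTest with 1 coefficient for the group, p adjusted by Benjamini-Hochberg over 15905 genes. DESeq2 1.42.0 and limma-voom (limma 3.58.1) were alternatives. The fits were tested on simulated data. The SE of an edgeR log2 fold change is its absolute value divided by the square root of the quasi-likelihood F statistic. Log2 CPM used a prior count of 2.

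The members, lists and alternatives were chosen with earlier results of these data known. Named genes were the members, EZH2, the 3 nearest genes to each member, and in each list every called gene and the 2 most abundant others in the control (1 of these is not reported here); RUNX2, SPP1, COL1A1, the other cell markers, BST1, AK5, CSF2, CXCL10, CXCL11, ADORA1, SLC29A1, SLC29A3, PKIG and ENTPD1-AS1 were added after seeing their values.

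Deviations from the group means correlated over genes at 0.328, 0.425, 0.185 and 0.209 for same-numbered libraries 1 to 4, above the 0.1 required, so the block is reported where it changes a call. Libraries of different number correlated as strongly in places (0.372 and 0.374 between replicates 1 and 2, 0.391 between miR-101 4 and control 3), so the data do not single out the numbers, and the labels state no pairing.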

Additional observations from a re-analysis of the deposited data

Results flagged for a closer look

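ADK in miR-101 replicate 4 stood apart from the other 3 miR-101 libraries, at 89.0 CPM against 74.0 to 76.0 CPM. Its gap to the nearest of them was 0.869 of the group's whole range, above Dixon's 95% critical value for 4 samples. It was the 1 such case in 22 groups of 4 libraries (the members and the called list genes), and chance gives about 1 in 20.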

How the results depend on the processing

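The direction of ENTPD1, DPP4, NT5E and ADK was the same with all libraries and under the 16 alternatives, with log2 fold changes of 3.76 to 4.74, 2.13 to 2.81, -0.574 to -0.412 and -0.301 to -0.151. ADA ranged from -0.153 (replicates 1 and 2 alone) to 0.215 (replicates 3 and 4 alone), and ENPP1 from -0.739 to 0.375 in the same fits. Counts of called genes depended strongly on the libraries used. Genes called higher and lower, 525 and 528 with all libraries and edgeR, were 840 and 874 with DESeq2, 883 and 793 with the replicate block, 106 and 67 with replicates 1 and 2 summed, 2534 and 2592 in replicates 1 and 2 alone, and 6 and 0 in replicates 3 and 4 alone. Leaving out 1 library gave 258 to 670 higher and 227 to 749 lower. The counts fell to 261 and 227 without miR-101 replicate 1, 258 and 231 without replicate 2, 342 and 342 without replicate 3, and to 318 and 297 or 286 and 278 without control replicate 1 or 2. Without miR-101 replicate 4 the counts were 423 and 417. They rose to 643 and 639 without control replicate 3 and to 670 and 749 without control replicate 4. The cause of these changes was not tested.

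The list counts moved as follows. Other ectonucleotidases (0 called with edgeR and all libraries) had 2 with DESeq2, 1 with limma-voom, 1 with the replicate block, 8 in replicates 1 and 2 alone and 0 to 1 leaving out 1 library. Adenosine and AMP metabolism (1) had 2 with DESeq2, 2 with the block, 0 with replicates 1 and 2 summed, 0 in replicates 3 and 4 alone, 5 in replicates 1 and 2 alone and 0 to 2 leaving out 1 library (2 without miR-101 replicate 4). Purinergic receptors (1) had 0 with replicates 1 and 2 summed, 0 in replicates 3 and 4 alone, 2 in replicates 1 and 2 alone and 0 to 1 leaving out 1 library. Peptidases (2) had 1 with limma-voom, 1 with replicates 1 and 2 summed, 0 in replicates 3 and 4 alone and 1 to 2 leaving out 1 library. DPP4 substrates and partners (1) had 2 with DESeq2, 2 with the block, 0 in replicates 3 and 4 alone, 7 in replicates 1 and 2 alone and 1 to 2 leaving out 1 library. Relative log expression factors and the unfiltered table left all 5 list counts as they were. The block ended none of the 5 list calls. Low read depth limits ENTPD1 and DPP4 among the members, with 3 to 48 reads in each control library, and CXCL12 among the list genes, with 1 to 7.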
